A study of Danio rerio with 10 samples.

Results

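The 62 genes described here serve cilia and flagella or the centriole and centrosome, and were picked by a rule on gene symbols. They were the genes whose symbol in the platform's annotation began with ift, bbs, cep or cetn (the first 3 followed by a digit), with tctn or nphp, or with tmem216, mks1 or traf3ip1. Upper-case spellings were counted, which added IFT43 and CEP350. They are 62 of the 19260 genes that had a probe of their own. Testes came from adult male zebrafish (Danio rerio), in 5 samples exposed to TCDD (2,3,7,8-tetrachlorodibenzo-p-dioxin, an agonist of the aryl hydrocarbon receptor) and 5 to the vehicle DMSO. Every fish was a wildtype of the AB strain and 1 year old. Each TCDD fish had been kept in water with 50 pg/ml TCDD for 1 h at 3 weeks and again for 1 h at 7 weeks after fertilization, and the DMSO fish had the vehicle at the same ages. The comparison asks whether that early exposure was followed by other transcript levels in the adult testis. Each array measured the RNA of 1 sample, numbered in the labels as a biological replicate, and how many fish went into a sample is not stated there.

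Intraflagellar transport (IFT) carries building material along the microtubules of a growing cilium or flagellum. IFT-B is needed chiefly for the run with kinesin toward the tip, and IFT-A for the run with dynein back to the base. The BBSome rides on the IFT trains and moves membrane proteins. The transition zone gates the base of the cilium, and below it stands the basal body, a centriole held in place by appendage proteins, many of them named cep. In a testis the sperm tail is grown from such a basal body by spermatids, and the same centriole proteins also serve dividing spermatogonia and somatic cells.

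On these arrays 61 of the 62 genes had a mean above the median of all probes, against 15688 of all 19260 genes, and cep170ab alone of the 62 lay below it. The median of the 62 gene means was 8.73 on the log2 scale, at the 83.1 percentile of all probes, against 8.01 and the 73.0 percentile for all genes. Probes differ in how well they bind, so a higher level in 1 gene than in another is not read as more transcript. The comparisons of transcript levels are between arrays.

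Over all probes the array medians ranged over 6.71 to 6.87, and any pair of arrays correlated at 0.90 to 0.98. The least like the rest was DMSO 1, whose correlations averaged 0.918, while those of each of the other 9 arrays averaged 0.952 or more. The labelled tissue was checked by markers. Meiosis genes averaged 10.59, 9.67, 10.37, 9.91 and 10.45 in TCDD 1 to TCDD 5, against 7.53, 9.96, 10.64, 10.59 and 10.46 in DMSO 1 to DMSO 5 (12 of 20 listed genes measured, 0 below the median of all probes). Sertoli cell genes averaged 9.58 to 10.80 in TCDD arrays and 9.22 to 10.21 in DMSO (11 of 12 measured, 0 below that median). The markers of the testis were thus present, with meiosis genes far lower in DMSO 1 than in any other array. The differences below are therefore given with and without DMSO 1.

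No gene of the 62 differed between TCDD and DMSO testes by limma's test over all genes. None passed an adjusted p of 0.05, where 0% of all genes did, and 0 of 62 had an unadjusted p under 0.05, against 2.48% of all genes. The adjusted p was 1.00 for every one of them. The TCDD and DMSO values overlapped in all 62, while groups did not overlap in 0.493% of all genes. TCDD means lay above DMSO means for 43 of 62 genes (51 after median centring), with a median difference of 0.12 on the log2 scale, against 54.6% of all genes and a median of 0.018, both without centring. Without DMSO 1 this turned round: TCDD means were lower for 57 of 62 genes with a median of -0.20, against 52.6% and a median of -0.012 over all genes. With TCDD 2 left out too they were lower for 49, with a median of -0.12, against 46.6% of all genes and 0.015. In that last fit 0 of 62 passed the adjusted threshold, against 0.00519% of all genes, and 0 had an unadjusted p under 0.05, against 6.18%. Median centring moves the difference of every gene by the same amount. The 54.6% is therefore no background for the 51 or for the centred counts below, and the centred share of all genes is not given here.

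**Figure D1:**
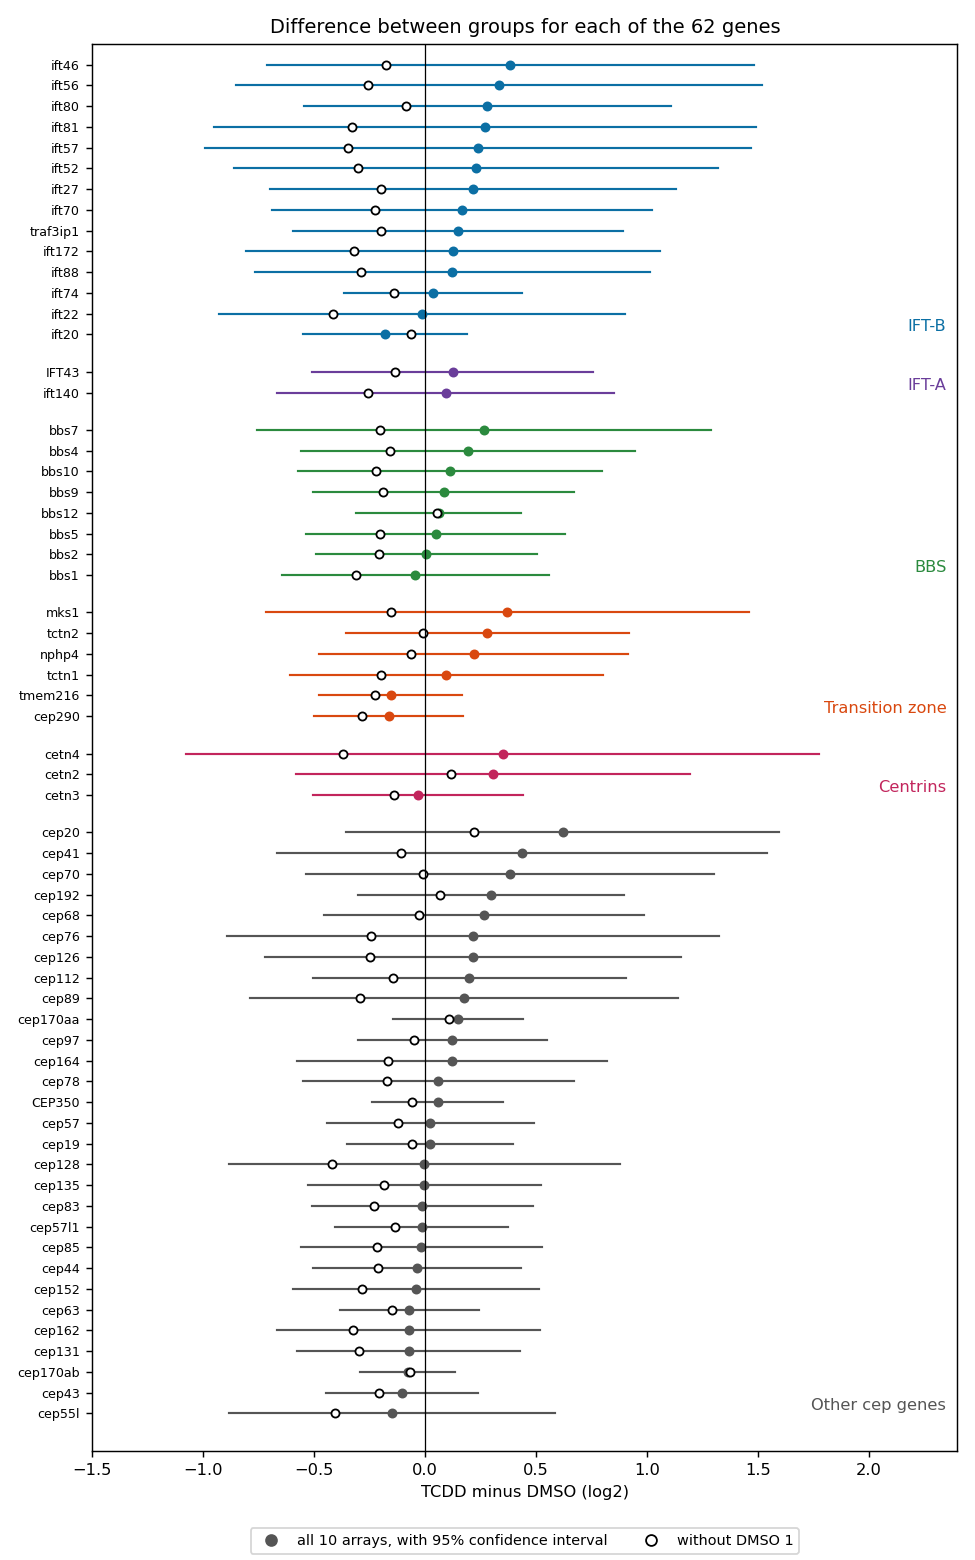
Difference between TCDD and DMSO testes for each of the 62 genes, in log2 units on the horizontal axis, with genes by group down the page. Filled points use all 10 arrays with the 95% confidence interval as a line, and open points leave out DMSO 1; every interval includes 0, and 57 open points lie left of 0.

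The intervals say what the arrays could show. Over all 10 arrays the median half-width of the 95% interval was 0.69 for the 62 genes, and the interval stayed within a 1.5-fold difference in both directions for 21 of them. Without DMSO 1 the half-width was 0.40 and 33 genes stayed within 1.5-fold, and without DMSO 1 and TCDD 2 it was 0.38 and 42. For the other genes the interval reached past 1.5-fold in at least 1 direction, so these arrays did not exclude a difference of that size. The same counts over all genes are not given here. The median SD over the DMSO arrays was 0.69 for the 62 genes and 0.30 for all genes. Over DMSO 2 to DMSO 5 it was 0.23 and 0.21.

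IFT-B, needed for outward transport, was measured by 14 genes. TCDD means were higher in 12 of them (13 after median centring) with a median difference of 0.19. Without DMSO 1 all 14 were lower in TCDD, with a median of -0.24. With and without that array 0 of 14 had an unadjusted p under 0.05, against 2.48% and 6.65% of all genes. The mean over the 14 genes was 10.09, 9.46, 10.08, 9.53 and 9.89 in TCDD 1 to TCDD 5, against 8.01, 9.73, 10.22, 10.12 and 10.13 in DMSO 1 to DMSO 5. DMSO 1 lay 1.45 or more below every other array, and the other 4 DMSO values lay within the span of the TCDD arrays or just above it.

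ift46, which encodes a core subunit that brings outer dynein arms into the flagellum in the alga Chlamydomonas, was at 12.15, 11.71, 12.03, 11.82 and 12.16 in TCDD 1 to TCDD 5, against 9.36, 11.96, 12.17, 12.29 and 12.18 in DMSO 1 to DMSO 5. The 9 arrays other than DMSO 1 lay within 0.58 of each other, and DMSO 1 was 2.36 below the lowest of them. Its means of 11.98 ± 0.20 in TCDD arrays and 11.59 ± 1.25 in DMSO arrays (SD, n = 5 each) differed by 0.38 (limma adjusted p = 1.00, 95% CI -0.71 to 1.48). Setting DMSO 1 aside made that -0.18 (95% CI -0.47 to 0.11). ift81, whose product binds tubulin together with that of ift74, was at 10.92, 10.31, 10.81, 10.17 and 10.93 in TCDD 1 to TCDD 5, against 7.97, 10.41, 11.16, 11.07 and 11.17 in DMSO 1 to DMSO 5. TCDD 2 and TCDD 4 were the lowest after DMSO 1, and the difference was 0.27 (95% CI -0.95 to 1.49), or -0.33 without DMSO 1. ift57 had one of the 3 largest standard deviations over the arrays and was at 10.31, 9.44, 10.87, 9.72 and 10.12 in TCDD 1 to TCDD 5, against 7.51, 10.23, 10.54, 10.37 and 10.62 in DMSO 1 to DMSO 5. TCDD 3 was its highest array and TCDD 2 its lowest after DMSO 1, with a difference of 0.24 (95% CI -0.99 to 1.47) and -0.35 without DMSO 1.

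ift88, the classical subunit whose loss abolishes cilia in the mouse, was at 10.26, 9.40, 10.10, 9.68 and 9.86 in TCDD 1 to TCDD 5, against 8.08, 9.75, 10.54, 10.12 and 10.19 in DMSO 1 to DMSO 5. Apart from DMSO 1 the groups overlapped, and the difference was 0.12 (95% CI -0.77 to 1.01), or -0.29 (95% CI -0.74 to 0.16) without DMSO 1. traf3ip1 encodes IFT54, a microtubule-binding subunit, and was at 10.12, 9.66, 10.003, 9.75 and 9.58 in TCDD 1 to TCDD 5, against 8.28, 9.81, 9.998, 9.89 and 10.40 in DMSO 1 to DMSO 5. It was highest in DMSO 5 and lowest in DMSO 1, and differed by 0.15 (95% CI -0.59 to 0.89), or -0.20 without DMSO 1. The remaining IFT-B genes were ift22, ift27, ift52, ift56, ift70, ift74, ift80 and ift172, with differences from -0.014 for ift22 to 0.33 for ift56, and from -0.42 for ift22 to -0.086 for ift80 without DMSO 1.

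ift22 and ift27 encode small GTPases of the Rab-like kind within the particle. ift22 lay at 7.93 to 8.96 in TCDD, against 8.61 to 9.11 in DMSO 2 to DMSO 5 and 6.90 in DMSO 1, and TCDD 2 and TCDD 4 were well under the other 3 TCDD arrays. ift27 lay at 9.72 to 10.88 in TCDD, against 10.34 to 10.94 in DMSO 2 to DMSO 5 and 8.54 in DMSO 1, with TCDD 2 its lowest array after DMSO 1. ift74, the tubulin-binding partner of ift81, was the steadiest of these 8 genes, at 8.27 to 8.63 in TCDD, against 8.56 to 8.70 in DMSO 2 to DMSO 5 and 7.74 in DMSO 1, with differences of 0.035 (-0.14 without DMSO 1). ift52, a core subunit, lay at 9.60 to 10.28 in TCDD, against 9.89 to 10.51 in DMSO 2 to DMSO 5 and 7.62 in DMSO 1, a difference of 0.23 (-0.30 without DMSO 1). In ift56, which in the mouse and zebrafish helps carry motility proteins into the cilium, the arrays lay at 9.95 to 10.59 in TCDD, against 10.01 to 10.79 in DMSO 2 to DMSO 5 and 7.57 in DMSO 1. Both were lowest in DMSO 1 by more than the whole range of the other 9 arrays. This held in 11 of the 14 IFT-B genes and in 31 of the 62, against 1293 of all 19260 genes. ift70 is the gene of the zebrafish mutant fleer, in which tubulin glutamylation in cilia is reduced, and it lay at 9.03 to 9.75 in TCDD, against 9.20 to 9.86 in DMSO 2 to DMSO 5 and 7.71 in DMSO 1. The peripheral subunits ift80 and ift172 lay at 9.35 to 10.29 in TCDD, against 9.44 to 10.36 in DMSO 2 to DMSO 5 and 8.09 in DMSO 1, and at 9.58 to 10.28 in TCDD, against 9.95 to 10.55 in DMSO 2 to DMSO 5 and 8.11 in DMSO 1. For these 3 genes the TCDD range reached below the range of DMSO 2 to DMSO 5, through TCDD 2 or TCDD 4, and the differences were 0.17 (-0.23 without DMSO 1), 0.28 (-0.086 without DMSO 1) and 0.13 (-0.32 without DMSO 1).

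The 1 IFT-B gene that was not low in DMSO 1 was ift20, whose product also works at the Golgi apparatus. Its brightest probe (13025732) was at 8.13, 7.85, 8.33, 7.68 and 8.10 in TCDD 1 to TCDD 5, against 8.67, 7.97, 8.09, 8.17 and 8.10 in DMSO 1 to DMSO 5. DMSO 1 was here the highest array, and the difference of -0.18 (95% CI -0.55 to 0.19) was -0.063 without it. A second probe of ift20 (13020233) disagreed, at 7.48 in DMSO 1 against 7.73 to 8.56 in the other 9 arrays. A further probe (13025727) was dim, at 5.96 in DMSO 1 and 5.16 to 5.96 elsewhere. All 3 probes gave a lower TCDD mean, with differences of -0.18, -0.15 and -0.32 (-0.063, -0.31 and -0.29 without DMSO 1). The direction of ift20 in DMSO 1 depends on which probe is read.

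**Figure D2:**
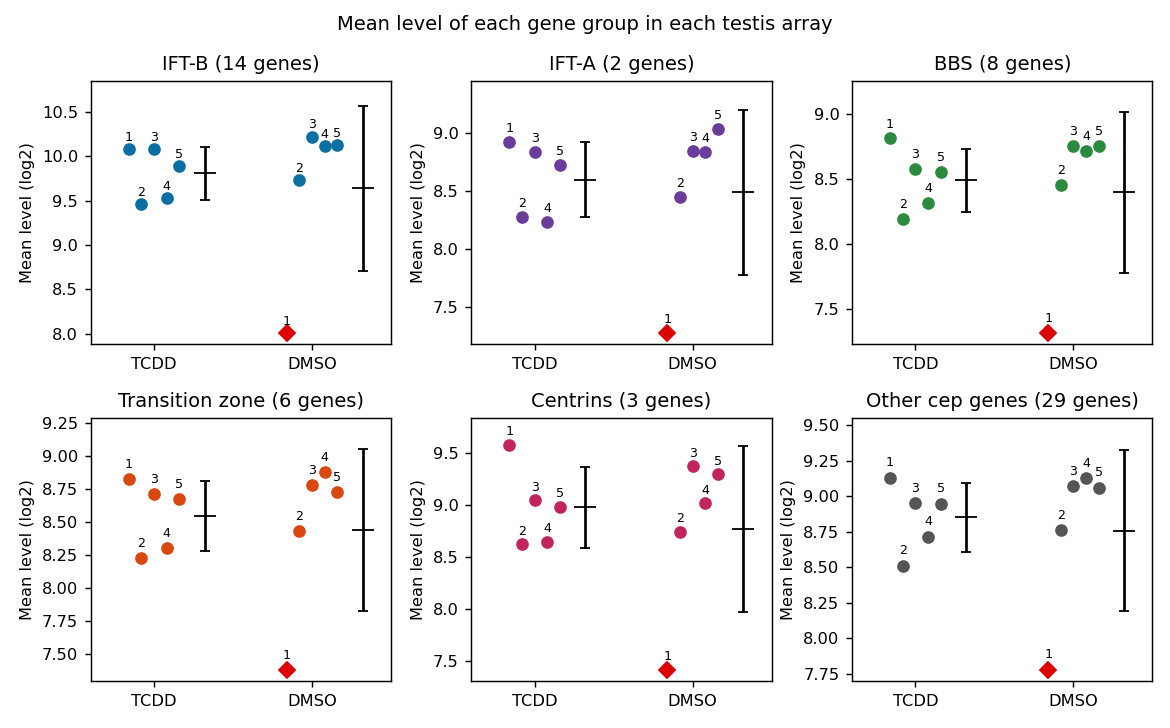
Mean log2 level of each gene group in each array, with TCDD arrays left and DMSO arrays right, numbered by replicate, and the group mean ± SD as a black bar. The red diamond is DMSO 1, which lies below every other array in all 6 panels, at 8.01 for IFT-B.

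IFT-A, needed for the return, was represented by IFT43 and ift140. IFT43 was at 8.45, 7.76, 8.30, 7.58 and 8.17 in TCDD 1 to TCDD 5, against 6.89, 7.91, 8.19, 8.21 and 8.44 in DMSO 1 to DMSO 5, and ift140, a large scaffold subunit, at 9.40, 8.79, 9.38, 8.89 and 9.29 in TCDD 1 to TCDD 5, against 7.66, 8.99, 9.51, 9.48 and 9.64 in DMSO 1 to DMSO 5. In both genes DMSO 1 was lowest and TCDD 2 and TCDD 4 came next. The differences were 0.12 (95% CI -0.51 to 0.76) and 0.093 (95% CI -0.67 to 0.85), and -0.13 and -0.26 without DMSO 1.

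Genes named bbs numbered 8, of which bbs1, bbs2, bbs4, bbs5, bbs7 and bbs9 encode BBSome subunits, while bbs10 and bbs12 encode chaperonin-like proteins that help to assemble it. TCDD means were higher in 7 of 8 (6 after quantile normalization) with a median of 0.072, and lower in 7 of 8 without DMSO 1 with a median of -0.21. The list mean was 8.81, 8.19, 8.57, 8.31 and 8.55 in TCDD 1 to TCDD 5, against 7.31, 8.46, 8.75, 8.72 and 8.75 in DMSO 1 to DMSO 5, lowest in DMSO 1 and next in TCDD 2 and TCDD 4. bbs7 was at 9.45, 8.54, 9.37, 8.94 and 9.44 in TCDD 1 to TCDD 5, against 7.01, 8.73, 9.65, 9.62 and 9.41 in DMSO 1 to DMSO 5. DMSO 1 departed by -2.35 from the mean of the other DMSO arrays, the deepest drop of the 8, and bbs7 differed by 0.26 (95% CI -0.76 to 1.29), or -0.21 without DMSO 1.

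bbs4 was at 8.91, 8.35, 8.37, 8.15 and 8.68 in TCDD 1 to TCDD 5, against 6.89, 8.42, 8.69, 8.64 and 8.86 in DMSO 1 to DMSO 5, and bbs2 at 9.50, 9.04, 9.42, 9.06 and 9.37 in TCDD 1 to TCDD 5, against 8.41, 9.26, 9.54, 9.57 and 9.59 in DMSO 1 to DMSO 5. Outside DMSO 1 the values of both genes lay within 0.76 and 0.54 of each other, and the differences were 0.19 (95% CI -0.56 to 0.95) and 0.0061 (95% CI -0.49 to 0.50). Without DMSO 1 both turned, to -0.16 and -0.21. bbs1, often altered in Bardet-Biedl syndrome in people, was at 8.92, 8.18, 8.42, 8.22 and 8.52 in TCDD 1 to TCDD 5, against 7.43, 8.58, 8.80, 8.85 and 8.83 in DMSO 1 to DMSO 5. Its difference of -0.045 (95% CI -0.65 to 0.56) was -0.31 (95% CI -0.66 to 0.038) without DMSO 1. bbs12 did not follow the rest: DMSO 1, at 7.52, lay within the 7.09 to 7.90 of the other arrays, and its difference was 0.061 with that array and 0.051 without it. bbs5 was at 7.25 to 7.95 in TCDD, against 7.53 to 7.84 in DMSO 2 to DMSO 5 and 6.42 in DMSO 1, and bbs9 at 8.81 to 9.33 in TCDD, against 8.97 to 9.33 in DMSO 2 to DMSO 5 and 7.86 in DMSO 1. The chaperonin-like bbs10 was at 8.21 to 8.63 in TCDD, against 8.50 to 8.74 in DMSO 2 to DMSO 5 and 6.96 in DMSO 1. These 3 genes kept to the pattern of the group, with DMSO 1 lowest and differences of 0.049 (-0.21 without DMSO 1), 0.083 (-0.19 without DMSO 1) and 0.11 (-0.22 without DMSO 1).

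Transition zone genes were tctn1, tctn2, tmem216, mks1, nphp4 and cep290. By the brightest probe of each gene, TCDD means were higher in 4 of 6 with a median of 0.16. Without DMSO 1 they were lower in all 6, with -0.18. mks1, the Meckel syndrome gene, was at 10.20, 9.25, 9.99, 9.49 and 10.03 in TCDD 1 to TCDD 5, against 7.32, 9.60, 10.07, 10.11 and 10.004 in DMSO 1 to DMSO 5. The other 9 arrays lay between 9.25 and 10.20, far above DMSO 1, and the difference of 0.37 (95% CI -0.72 to 1.46) was -0.15 without that array. tctn2, which encodes a tectonic protein of the same complex, was at 9.16, 8.68, 9.08, 8.57 and 8.91 in TCDD 1 to TCDD 5, against 7.43, 8.75, 8.94, 9.14 and 8.74 in DMSO 1 to DMSO 5, and it differed by 0.28 (95% CI -0.36 to 0.92), or -0.012 without DMSO 1. Its relative tctn1 lay at 7.998 to 8.86 in TCDD, against 8.27 to 8.997 in DMSO 2 to DMSO 5 and 7.16 in DMSO 1, a difference of 0.096 (-0.20 without DMSO 1). nphp4, whose loss causes nephronophthisis in people, lay at 8.38 to 9.11 in TCDD, against 8.29 to 9.23 in DMSO 2 to DMSO 5 and 7.48 in DMSO 1, and differed by 0.22 (-0.066 without DMSO 1). DMSO 2 was the lowest array of nphp4 after DMSO 1, and TCDD 2 that of tctn1. A second, dimmer probe of nphp4 was at 7.06 in DMSO 1, against 7.34 to 7.73 in the other 9 arrays. It differed by 0.12, or by 0.032 without DMSO 1, so the direction of nphp4 without DMSO 1 depends on the probe.

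cep290 links the ciliary membrane to the microtubules, and its values were 8.66, 8.30, 8.46, 8.27 and 8.46 in TCDD 1 to TCDD 5, against 8.12, 8.63, 8.72, 8.60 and 8.90 in DMSO 1 to DMSO 5. It was lower in TCDD with and without DMSO 1, with differences of -0.17 (95% CI -0.50 to 0.17) and -0.28 (95% CI -0.55 to -0.018), and 4 of 5 TCDD arrays lay below each of DMSO 2 to DMSO 5. tmem216 encodes a membrane protein of the gate, and it was at 6.96, 6.74, 7.19, 6.58 and 7.12 in TCDD 1 to TCDD 5, against 6.79, 7.05, 7.13, 7.21 and 7.19 in DMSO 1 to DMSO 5. DMSO 1 lay inside its range, and it differed by -0.16 (95% CI -0.48 to 0.16), or -0.23 without DMSO 1. These were the 2 transition zone genes least lowered in DMSO 1, with departures of -0.60 and -0.35 from the mean of the other DMSO arrays, against -2.63 for mks1.

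Centrins are small calcium-binding proteins of the centriole. All 3 genes measured were lower in DMSO 1 than the mean of DMSO 2 to DMSO 5, by unlike amounts. The departures were -3.60 for cetn4, -0.93 for cetn2 and -0.54 for cetn3. cetn4, a gene of ciliated cells in the mouse, was at 11.51, 11.07, 11.18, 10.59 and 11.35 in TCDD 1 to TCDD 5, against 7.91, 11.20, 11.45, 11.69 and 11.71 in DMSO 1 to DMSO 5. It had the largest standard deviation of all 62 genes over the 10 arrays, 1.12, which was 0.35 without DMSO 1, where it lay 2.68 below the next array. Its means of 11.14 ± 0.35 in TCDD arrays and 10.79 ± 1.63 in DMSO arrays (SD, n = 5 each) differed by 0.35 (limma adjusted p = 1.00, 95% CI -1.08 to 1.78), or by -0.37 (95% CI -0.79 to 0.049) without DMSO 1. cetn2, which also serves DNA repair, was at 8.82, 7.17, 7.46, 7.22 and 7.93 in TCDD 1 to TCDD 5, against 6.67, 6.64, 8.32, 7.47 and 7.98 in DMSO 1 to DMSO 5. Here DMSO 2 was the lowest array, just under DMSO 1, and TCDD 1 the highest, and the spread over the 9 arrays without DMSO 1 was the widest of the 62 genes, at an SD of 0.66. It was 1 of 5 genes with a higher TCDD mean with and without DMSO 1, at 0.31 (95% CI -0.58 to 1.19) and 0.12. cetn3, known from centriole duplication, was at 8.41, 7.62, 8.50, 8.13 and 7.67 in TCDD 1 to TCDD 5, against 7.66, 8.39, 8.34, 7.89 and 8.20 in DMSO 1 to DMSO 5, with TCDD 2 lowest and DMSO 1 next. It differed by -0.031 (95% CI -0.50 to 0.44), or by 0.010 after median centring, and by -0.14 without DMSO 1.

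**Figure D3:**
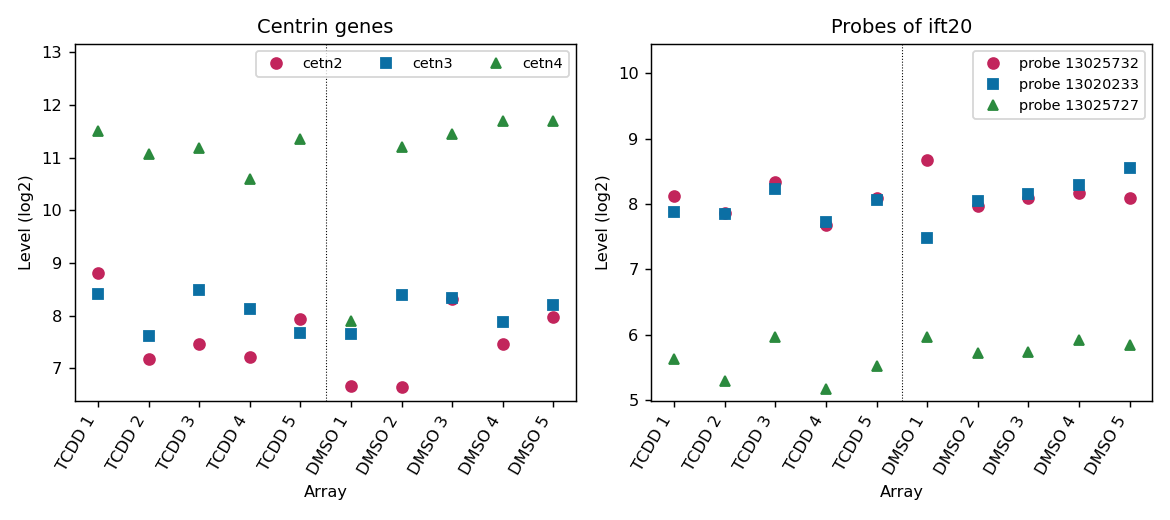
Log2 level of the 3 centrin genes (left) and of the 3 probes of ift20 (right) in each array, with TCDD arrays left of the dotted line. cetn4 drops to 7.91 in DMSO 1 while cetn3 and cetn2 stay within or close to their ranges, and the probes of ift20 part in DMSO 1, at 8.67, 7.48 and 5.96.

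The largest group was the 29 cep genes other than cep290, which encode proteins of the centriole, its appendages and its surroundings. Differences between TCDD and DMSO were about evenly split, with 16 of 29 higher (22 after median centring) and a median of 0.024, and without DMSO 1 26 of 29 were lower with a median of -0.17. cep20, a centriolar satellite gene needed for cilium growth in human cells, had the smallest unadjusted p of all 62 genes at 0.189. It was at 10.57, 9.35, 10.15, 10.12 and 10.58 in TCDD 1 to TCDD 5, against 7.93, 9.18, 10.19, 10.41 and 9.96 in DMSO 1 to DMSO 5. DMSO 1 was lowest, with DMSO 2 and TCDD 2 next, and the means were 10.15 ± 0.50 in TCDD arrays and 9.53 ± 1.01 in DMSO arrays (SD, n = 5 each). The difference was 0.62 (limma adjusted p = 1.00, 95% CI -0.36 to 1.60), 0.22 (95% CI -0.43 to 0.87) without DMSO 1 and 0.42 without DMSO 1 and TCDD 2.

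cep164 encodes a distal appendage protein that docks the basal body to the membrane, and it was at 11.54, 11.03, 10.69, 11.16 and 10.67 in TCDD 1 to TCDD 5, against 9.74, 11.16, 10.81, 11.60 and 11.17 in DMSO 1 to DMSO 5. TCDD 1 and DMSO 4 were its highest arrays, and it differed by 0.12 (95% CI -0.58 to 0.82), or -0.17 without DMSO 1. The other distal appendage genes, cep83 and cep89, differed by -0.013 (95% CI -0.51 to 0.49) and 0.18 (95% CI -0.79 to 1.14), and by -0.23 and -0.29 without DMSO 1. cep112 was at 11.69, 11.28, 11.68, 11.33 and 11.60 in TCDD 1 to TCDD 5, against 9.95, 11.53, 11.72, 11.56 and 11.83 in DMSO 1 to DMSO 5, and the 9 arrays other than DMSO 1 lay within 0.55. It differed by 0.20 (95% CI -0.51 to 0.90), and a second, dimmer probe by -0.083. Without DMSO 1 the probes had the same direction, at -0.14 and -0.23.

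Genes of centriole duplication were cep152 and cep192, whose products recruit the kinase Plk4, and cep135, a centriole wall gene. They differed by -0.042 (95% CI -0.60 to 0.51), 0.30 (95% CI -0.30 to 0.90) and -0.0032 (95% CI -0.53 to 0.52), and without DMSO 1 by -0.29, 0.066 and -0.19. The second probe of cep192 gave -0.18, or -0.41 without DMSO 1, opposite to the first in both fits. cep41, which promotes the glutamylation of axonemal tubulin, fell furthest of the 29 in DMSO 1, to 7.15, against 9.22 to 10.06 in the other 9 arrays. It differed by 0.44 (95% CI -0.67 to 1.54), or -0.11 without DMSO 1.

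Further cep genes fell by at least 2 log2 units in DMSO 1. cep126 was at 9.25 to 9.79 in TCDD, against 9.43 to 9.85 in DMSO 2 to DMSO 5 and 7.42 in DMSO 1, a difference of 0.21 (-0.25 without DMSO 1). cep76, which limits centriole reduplication in human cells, was at 8.43 to 10.06 in TCDD, against 9.14 to 10.27 in DMSO 2 to DMSO 5 and 7.32 in DMSO 1, a difference of 0.22 (-0.24 without DMSO 1). cep89, named above, was at 9.07 to 9.87 in TCDD, against 9.42 to 9.98 in DMSO 2 to DMSO 5 and 7.46 in DMSO 1. In all 3 of these the TCDD values spanned or overlapped those of DMSO 2 to DMSO 5. cep70, cep68 and cep97 were lowered in DMSO 1 by less: cep70 was at 9.03 to 10.02 in TCDD, against 8.88 to 9.996 in DMSO 2 to DMSO 5 and 7.65 in DMSO 1, and cep68, a linker gene between centrioles, at 8.04 to 9.06 in TCDD, against 8.39 to 9.04 in DMSO 2 to DMSO 5 and 7.31 in DMSO 1. cep97, which caps growing centrioles together with CP110, was at 9.31 to 9.85 in TCDD, against 9.59 to 9.76 in DMSO 2 to DMSO 5 and 8.79 in DMSO 1. Their TCDD means lay above the DMSO means over 10 arrays and below without DMSO 1, with differences of 0.38 (-0.010 without DMSO 1), 0.27 (-0.028 without DMSO 1) and 0.12 (-0.052 without DMSO 1).

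The next genes had DMSO 1 about 1 log2 unit low. cep162, which marks the ends of axonemal microtubules at the transition zone in human cells, was at 8.16 to 8.68 in TCDD, against 8.32 to 8.94 in DMSO 2 to DMSO 5 and 7.48 in DMSO 1, a difference of -0.074 (-0.33 without DMSO 1). cep55l, whose human relative CEP55 acts in the final separation of dividing cells, was at 7.28 to 8.81 in TCDD, against 8.21 to 8.84 in DMSO 2 to DMSO 5 and 7.28 in DMSO 1, a difference of -0.15 (-0.40 without DMSO 1). Its TCDD 2 value equalled that of DMSO 1 to 2 decimals, which happened in no other gene of the group. cep78 was at 7.11 to 8.07 in TCDD, against 7.34 to 7.995 in DMSO 2 to DMSO 5 and 6.55 in DMSO 1, cep85 at 7.88 to 8.61 in TCDD, against 8.17 to 8.85 in DMSO 2 to DMSO 5 and 7.49 in DMSO 1 and cep44 at 7.87 to 8.36 in TCDD, against 8.07 to 8.60 in DMSO 2 to DMSO 5 and 7.44 in DMSO 1. Their differences were 0.059 (-0.17 without DMSO 1), -0.017 (-0.22 without DMSO 1) and -0.037 (-0.21 without DMSO 1). All 5 were lower in TCDD once DMSO 1 was set aside, and all but cep78 with that array too.

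In the last genes DMSO 1 stood close to the lowest of the other arrays. cep57 and cep57l1 encode related microtubule-binding proteins of the centrosome and lay at 8.09 to 9.01 in TCDD, against 8.51 to 8.85 in DMSO 2 to DMSO 5 and 7.98 in DMSO 1, and at 7.94 to 8.56 in TCDD, against 8.17 to 8.65 in DMSO 2 to DMSO 5 and 7.79 in DMSO 1. cep63, a partner of cep152 in centriole duplication, lay at 8.31 to 8.82 in TCDD, against 8.50 to 8.90 in DMSO 2 to DMSO 5 and 8.29 in DMSO 1. cep19, which recruits IFT-B to the base of the cilium in human cells, lay at 7.09 to 7.81 in TCDD, against 7.17 to 7.57 in DMSO 2 to DMSO 5 and 7.01 in DMSO 1. cep43, known as FOP in people, lay at 7.77 to 8.27 in TCDD, against 7.96 to 8.35 in DMSO 2 to DMSO 5 and 7.70 in DMSO 1. These 5 genes had differences of 0.024 (-0.12 without DMSO 1), -0.016 (-0.14 without DMSO 1), -0.071 (-0.15 without DMSO 1), 0.022 (-0.060 without DMSO 1) and -0.10 (-0.21 without DMSO 1), and TCDD 2 or TCDD 4 was their lowest TCDD array except in cep19, where TCDD 5 was.

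At the other end stood the genes that hardly varied. cep170ab, a dim gene, was at 6.40, 6.29, 6.39, 6.26 and 6.39 in TCDD 1 to TCDD 5, against 6.47, 6.58, 6.39, 6.32 and 6.36 in DMSO 1 to DMSO 5, and its paralog cep170aa at 8.33, 7.96, 8.07, 8.52 and 8.04 in TCDD 1 to TCDD 5, against 7.87, 8.09, 8.01, 8.22 and 7.98 in DMSO 1 to DMSO 5. Human CEP170 sits at subdistal appendages. cep170ab had the smallest SD over 10 arrays, 0.092, and CEP350, a large centrosome gene, the second smallest, 0.18. CEP350 was at 9.67, 9.69, 9.60, 9.49 and 9.61 in TCDD 1 to TCDD 5, against 9.10, 9.65, 9.66, 9.72 and 9.65 in DMSO 1 to DMSO 5. Its 9 arrays other than DMSO 1 lay within 0.23, and DMSO 1 was 0.39 below them. The differences of the 3 genes were -0.079 (95% CI -0.29 to 0.13), 0.15 (95% CI -0.15 to 0.44) and 0.056 (95% CI -0.24 to 0.35), and all 3 intervals stayed within 1.5-fold. Without DMSO 1 they were -0.067, 0.11 and -0.058, so that CEP350 turned.

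Without DMSO 1, 3 of the 62 genes had an unadjusted p under 0.05, all lower in TCDD, and none passed the adjusted threshold. All genes had 6.65% at that level, 2.99% lower in TCDD, and 0% past the adjusted one, so 3 of 62 is near the background. They were cep128, a subdistal appendage gene, at -0.42 (95% CI -0.83 to -0.011), cep131, a satellite gene, at -0.30 (95% CI -0.59 to -0.0011), and cep290. cep128 was at 8.81, 8.11, 8.65, 8.25 and 8.66 in TCDD 1 to TCDD 5, against 6.83, 8.50, 8.97, 9.02 and 9.18 in DMSO 1 to DMSO 5, and cep131 at 9.24, 8.95, 9.12, 8.91 and 9.09 in TCDD 1 to TCDD 5, against 8.25, 9.13, 9.40, 9.24 and 9.66 in DMSO 1 to DMSO 5. In both genes TCDD 2 and TCDD 4 were the lowest TCDD arrays and DMSO 5 was the highest array of all. The TCDD values of both reached above DMSO 2, and in cep131 TCDD 1, at 9.2403, also lay just above DMSO 4, at 9.2356. The limma adjusted p of cep128 and cep131 was 0.716 each without DMSO 1. With TCDD 2 set aside too, cep128 differed by -0.32 (95% CI -0.72 to 0.068) and cep131 by -0.27 (95% CI -0.59 to 0.048). cep290 then differed by -0.25 (95% CI -0.54 to 0.030), so all 3 intervals included 0. No group pair was free of overlap without DMSO 1 (0 of 62, against 2.51% of all genes).

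The clearest pattern among the 62 genes lay between arrays and not between groups. DMSO 1 was the lowest of the 10 arrays in 56 of 62 genes (90.3%), against 28.8% of all genes. It lay at least 1 log2 unit below the mean of DMSO 2 to DMSO 5 in 43 genes, against 11.3% of all genes, and at least 2 units below in 18, against 2.88%. The median departure was -1.39, against -0.036 over all genes. This is 1 array, so no test was made.

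No test was made between the gene groups in the depth of this drop. The median departure of DMSO 1 was -2.06 for IFT-B, -1.52 for IFT-A, -1.44 for the transition zone, -1.34 for the bbs genes, -1.15 for the other cep genes and -0.93 for the centrins. At least 2 log2 units were lost by 9 of 14 IFT-B genes, against 6 of 29 cep genes, 1 of 8 bbs genes, 1 of 6 transition zone genes and 1 of 3 centrins. IFT-B had the deepest median drop of the groups and also the highest median level, at the 93.7 percentile of all probes. This percentile was 80.0 for IFT-A, 81.6 for the transition zone, 79.2 for the bbs genes, 81.0 for the other cep genes and 74.0 for the centrins. Among these other groups the order of the drop was not that of level. Across the 62 genes the median percentile was 93.6 for the 18 at least 2 units lower, 83.2 for the 25 that were 1 to 2 units lower and 74.5 for the 19 that were less than 1 unit lower or not lower. These are medians, and single genes did not all follow them. Level here is that read by the probe, and the part of level, probe binding or role in the depth was not tested. The deepest were cetn4 at -3.60, ift81 at -2.99, ift56 at -2.95, ift57 at -2.93 and ift46 at -2.79. The 6 genes in which DMSO 1 was not the lowest array were ift20, bbs12, tmem216, cetn2, cetn3 and cep170ab.

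**Figure D4:**
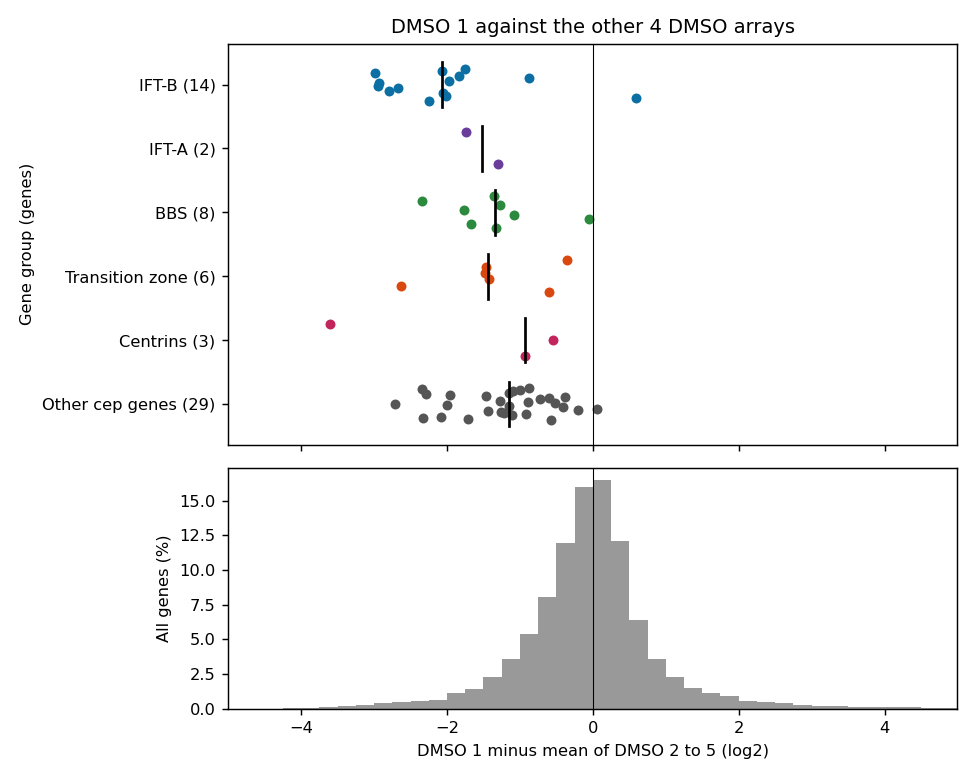
Level of DMSO 1 minus the mean of DMSO 2 to DMSO 5 on the log2 scale, for each of the 62 genes by group with the group median as a black line (top), and as the percentage of all 19260 genes in bins of 0.25 (bottom). All but ift20 and cep170ab lie left of 0, with cetn4 furthest at -3.60, while the genes as a whole centre near 0.

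With DMSO 1 set aside, most of the 62 genes shared their lowest arrays. TCDD 2 was the lowest of the 9 arrays in 33 genes and TCDD 4 in 22, together 55 of 62 (88.7%), against 37.4% of all genes. The highest array was TCDD 1 in 14 genes, DMSO 3 in 11, DMSO 4 in 14 and DMSO 5 in 15, which is 22.6%, 17.7%, 22.6% and 24.2% of the 62. Over all genes these shares were 18.4%, 18.9%, 8.7% and 6.4%. In DMSO 2 57 of 62 lay below the mean of DMSO 3 to DMSO 5, with a median departure of -0.32, against 59.8% of all genes and a median of -0.072. The mean over the 62 genes was 9.29, 8.65, 9.14, 8.79 and 9.08 in TCDD 1 to TCDD 5, against 7.70, 8.90, 9.27, 9.26 and 9.24 in DMSO 1 to DMSO 5. The median SD of a gene was 0.30 over the TCDD arrays, and 0.69 over the DMSO arrays or 0.23 over DMSO 2 to DMSO 5. For all genes these were 0.24, 0.30 and 0.21.

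Markers of germ cell stages moved with these arrays. Spermatid and flagellum genes (30 of 45 listed genes measured, 1 below the median of all probes) averaged 9.87, 9.35, 9.87, 9.38 and 9.83 in TCDD 1 to TCDD 5, against 7.39, 9.61, 9.95, 9.97 and 10.001 in DMSO 1 to DMSO 5. They were lowest in DMSO 1 and next in TCDD 2 and TCDD 4, as the 62 genes were, and so were the meiosis genes above. Genes listed for spermatogonia (13 of 15 measured, 1 below that median) had no common drop: they averaged 8.79 in DMSO 1, with 8.73 to 8.96 in TCDD and 8.71 to 9.03 in the other DMSO arrays. That list includes ddx4, dazl and piwil1, and whether it is specific to spermatogonia was not tested. Single genes of that list departed in DMSO 1 by -1.37 to 1.59 from the mean of DMSO 2 to DMSO 5, with 3 of 13 at least 1 unit lower and 4 of 13 at their lowest there. In whole testes, fewer cells of a type and less RNA per cell cannot be told apart.

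Markers of tissues next to the testis were uneven too. Exocrine pancreas genes (14 of 18 measured, 1 below the median of all probes) averaged 9.33, 11.31, 9.33, 10.52 and 7.89 in TCDD 1 to TCDD 5, against 12.42, 8.23, 9.02, 8.60 and 8.45 in DMSO 1 to DMSO 5. Intestine genes (13 of 18, 1 below) stood at 9.94 in TCDD 2, 9.19 in TCDD 3, 7.34 in TCDD 4 and 10.47 in DMSO 1, while the rest of the arrays held 6.53 to 6.91. The 3 arrays in which the 62 genes were lowest were the 3 highest in pancreas genes. In TCDD 3 intestine genes averaged 9.19 and the 62 genes 9.14. In DMSO 2 the means were 6.91 and 8.90, in that order. Hepatocyte genes (19 of 22, 0 below) were highest in TCDD 5, at 10.995, with 8.04 to 9.14 in TCDD 1 to TCDD 4 and 7.27 to 8.26 in DMSO. Skeletal muscle (19 of 20, 9 below), oocyte (11 of 12, 5 below) and erythrocyte genes (7 of 9, 0 below) averaged 6.91, 7.03 and 6.80 in DMSO 1, against 6.73 to 7.58, 7.11 to 7.98 and 7.29 to 8.58 in the other 9 arrays. Leydig cell genes (10 of 12, 0 below) averaged 8.92 to 9.57 in TCDD and 8.82 to 9.31 in DMSO 2 to DMSO 5, and 7.73 in DMSO 1. Genes listed for multiciliated somatic cells (6 of 10, 1 below) averaged 7.64 in DMSO 1, against 8.24 to 9.02 elsewhere. Single genes of that list departed in DMSO 1 by -3.06 to 4.38 from the mean of DMSO 2 to DMSO 5, with 5 of 6 lower. The list is not specific, as it shares cdh17 with the intestine list and odf3b with the spermatid and flagellum list. It also shares gmnc, mcidas, foxj1a and foxj1b with the list of transcription factors of ciliated cells below, so these lists are not separate observations. The part of other tissues in the levels of the 62 genes was not tested.

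**Figure D5:**
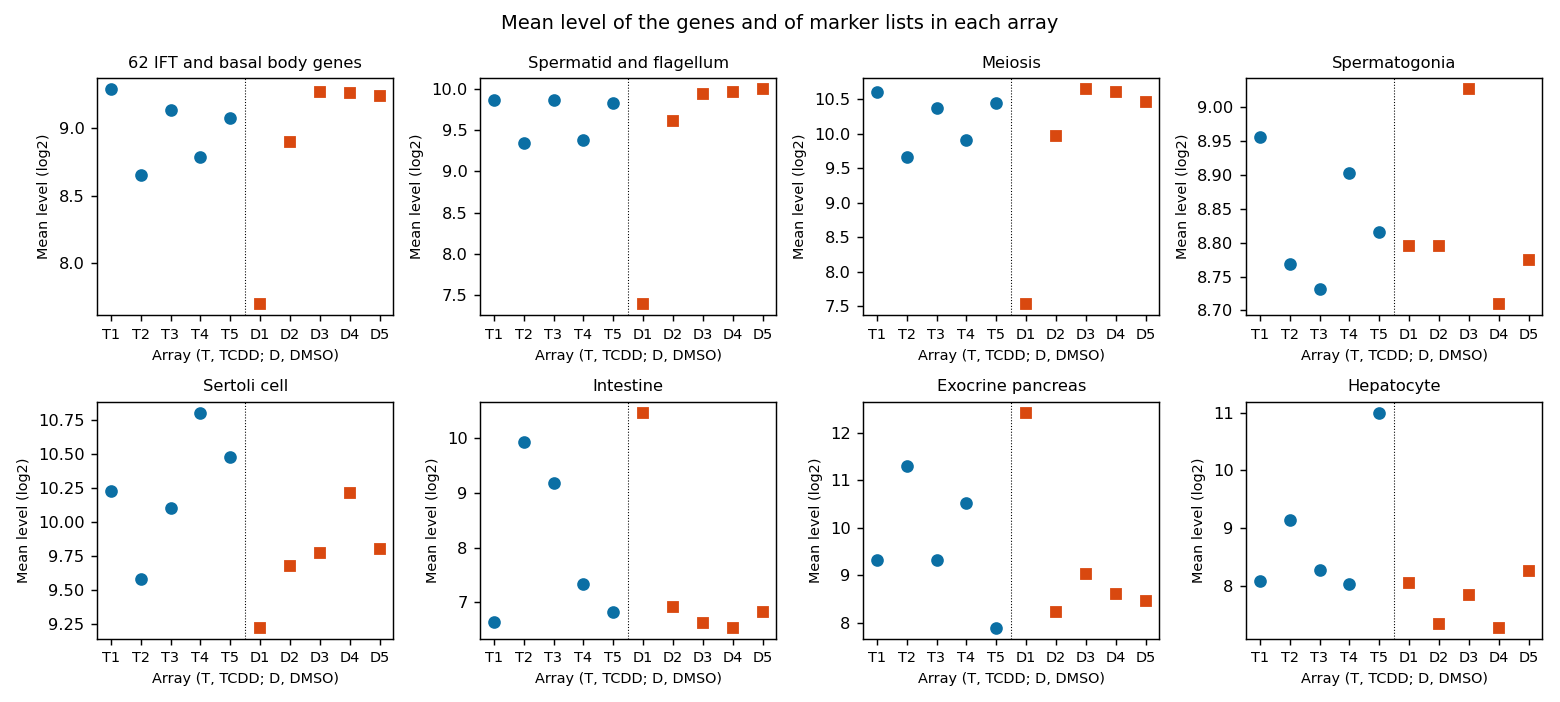
Mean log2 level of the 62 genes and of 7 marker lists in each array, TCDD arrays (blue circles) left of the dotted line and DMSO arrays (orange squares) right. The first 3 panels share their low arrays, with D1 at 7.70, 7.39 and 7.53, the mean of the spermatogonia genes does not drop there, and D1 is the highest in the intestine and pancreas panels.

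Other genes of the same machinery, which the naming rule does not take in, gave a like picture. Of 101 listed genes 84 were measured. None of the 84 passed limma's adjusted threshold, where 0% of all genes did, and 0 had an unadjusted p under 0.05, against 2.48% of all genes. Groups overlapped in all of the 84, while they did not overlap in 0.493% of all genes. TCDD means were higher in 64 of 84 with a median of 0.10, against 54.6% of all genes. Without DMSO 1 they were lower in 75 of 84 with a median of -0.15, against 52.6% of all genes. With TCDD 2 left out too they were lower in 58 of 84 with a median of -0.083, against 46.6% of all genes. In that last fit 1 of 84 had an unadjusted p under 0.05, against 6.18% of all genes. DMSO 1 was the lowest array in 71 of 84, against 28.8% of all genes. Without DMSO 1, 4 of 84 had an unadjusted p under 0.05, all lower in TCDD, against 6.65% of all genes and 2.99% lower, so this count is near the background. They were bbip1, cc2d2a, dync2h1 and pcnt. Their differences were -0.62, -0.35, -0.33 and -0.28, at a limma adjusted p of 0.716 each.

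Motors of IFT (9 of 13 listed symbols matched) had a median difference of 0.11, and -0.15 without DMSO 1. dync2li1, a light intermediate chain of the returning dynein, was at 10.84, 9.68, 10.73, 10.05 and 10.62 in TCDD 1 to TCDD 5, against 7.31, 9.80, 10.70, 10.81 and 10.36 in DMSO 1 to DMSO 5, a difference of 0.59 (95% CI -0.72 to 1.90) that was -0.032 without DMSO 1. kifap3b, the kinesin-2 adaptor gene, differed by 0.43 (95% CI -0.52 to 1.39), or -0.014. Both were at their lowest in DMSO 1. Further IFT genes (10 of 14) had a median of 0.096 and -0.19 without DMSO 1. In these, TULP3, an IFT-A cargo adaptor, differed by 0.16 (95% CI -0.32 to 0.64), or -0.035 without DMSO 1, and arl3l2, of the small GTPases that release ciliary cargo, by 0.098 (95% CI -0.22 to 0.41), or 0.18.

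Further BBSome genes (6 of 8) had a median of 0.036, and -0.16 without DMSO 1. bbip1, the smallest BBSome subunit, was at 9.13, 8.93, 8.32, 8.003 and 9.08 in TCDD 1 to TCDD 5, against 7.40, 9.30, 8.91, 9.61 and 9.44 in DMSO 1 to DMSO 5. TCDD 4 and TCDD 3 were its lowest arrays after DMSO 1, and it differed by -0.24 (95% CI -1.13 to 0.65), or -0.62 (95% CI -1.17 to -0.072) without DMSO 1. ttc8, the BBS8 gene, differed by 0.16 (95% CI -0.47 to 0.79), or -0.13. Further transition zone genes (18 of 18) had medians of 0.063 and -0.20. nek8, a ciliary kinase gene, was at 8.97, 8.81, 9.24, 8.82 and 9.02 in TCDD 1 to TCDD 5, against 7.66, 8.77, 8.83, 8.86 and 8.87 in DMSO 1 to DMSO 5. DMSO 2 to DMSO 5 lay between 8.77 and 8.87, and the difference was 0.38 (95% CI -0.13 to 0.88), or 0.14 without DMSO 1. rpgrip1, better known from photoreceptors, was dim and differed by -0.15 (95% CI -0.38 to 0.082), or -0.12 without DMSO 1.

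Centriole and basal body genes (26 of 32) had a median difference of 0.11, and -0.15 without DMSO 1. ttbk2a, of the kinase family that starts cilium assembly at cep164, differed by 0.18 (95% CI -0.16 to 0.52), and nin, a subdistal appendage gene, by 0.21 (95% CI -0.23 to 0.65). Without DMSO 1 they differed by 0.075 and 0.11. Transcription factors of ciliated cells (15 of 16) had medians of 0.23 and -0.10. rfx2, a regulator of ciliary genes, was at 9.10, 8.76, 9.08, 8.71 and 8.88 in TCDD 1 to TCDD 5, against 7.58, 8.35, 9.08, 8.97 and 8.99 in DMSO 1 to DMSO 5. It was lowest in DMSO 1 and next in DMSO 2, and differed by 0.31 (95% CI -0.28 to 0.90), or 0.058 without DMSO 1. rfx7a differed by 0.26 (95% CI -0.29 to 0.81), or 0.16.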

How the data were processed

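Testis RNA of 10 samples was labelled and hybridised to whole-transcript arrays, 1 sample each, per the labels' protocols. The deposited table holds log2 values processed by the authors, 1 column per array. The log2 scale was read from their range (1.25 to 14.6). The sources used here name neither a background correction nor a normalization. Each of the 10 columns carried the identifier of 1 sample.

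Of 75212 probes, 20806 had 1 gene symbol in the platform's annotation, 855 had several and named no gene, and 53551 had none. Symbols were updated by Entrez identifier for 1 probe, of 20323 matched. The probe with the highest mean over 10 arrays stood for each of 19260 genes. The 62 genes had 67 probes. Another 3 probes that name a fitting symbol beside others were not analysed here. No genome was given.

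The 2 groups were fitted in limma 3.58.1 under R 4.3.3 (lmFit and eBayes on group, Benjamini-Hochberg over all genes). Differences are TCDD minus DMSO. The fit was tested on simulated data with independent normal noise, of the same SD in all arrays for a gene. An array apart from the rest, like DMSO 1, was not simulated. For arrays, their number limits the precision. Alternatives were the replicate number as a block, quantile normalization, median centring, array weights, a robust fit with a trend in variance, a filter on dim genes, averaging a gene's probes, and leaving out each array or both DMSO 1 and TCDD 2.

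The genes, lists and alternatives were chosen with earlier results of these data known. Named were, per gene group, the 2 with the smallest p and the 2 with the highest level; genes at an unadjusted p under 0.05 or without overlap (0 each); the 3 largest and 3 smallest SDs; textbook members of the complexes; and 2 genes per list outside the rule. The other genes of the 62, and cc2d2a, dync2h1 and pcnt, were described after their values were seen.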

Additional observations from a re-analysis of the deposited data

Results flagged for a closer look

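In 26 of the 62 genes the DMSO 1 value stood apart from the other 4 DMSO values. The measure is its gap to the nearest of them as a share of the whole range of the 5, and 0.71 is Dixon's 95% limit for 5 samples. Chance passes that limit in about 5% of groups of normal values, and over all genes it was passed in 15.997% of DMSO groups and 6.54% of TCDD groups. The gap in IFT-B genes was ift172 0.753, ift22 0.776, ift27 0.750, ift46 0.888, ift52 0.784, ift56 0.757, ift57 0.876, ift74 0.858, ift81 0.763 and traf3ip1 0.723. Among bbs genes it was bbs1 0.806, bbs10 0.866, bbs2 0.724, bbs4 0.778, bbs5 0.781 and bbs9 0.756. In the transition zone it was mks1 0.818 and tctn2 0.763, and for the centrin cetn4 it was 0.865. The other cep genes had cep112 0.839, cep126 0.829, CEP350 0.888, cep41 0.901, cep83 0.727, cep89 0.778 and cep97 0.830. DMSO 1 was the low array in each of these.

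Group means stood apart in DMSO 1 as well, by 0.764 for the 62 genes, 0.777 for IFT-B, 0.793 for the bbs genes and 0.730 for the other cep genes. Of the further genes of the machinery that are named above, ttc8 had 0.711, nek8 0.922, kifap3b 0.761 and dync2li1 0.711, again with DMSO 1 low. In TCDD testes 1 gene was marked, cep152, where TCDD 3 at 9.10 lay above the other 4 arrays, at 8.61 to 8.74, by a share of 0.717.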

How the results depend on the processing

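None of the 25 named genes of the 62, nor the 12 named outside them, passed the adjusted threshold under any alternative. The count over all genes at that threshold was 0 and became 1 without TCDD 2 or without both DMSO 1 and TCDD 2. By other call rules it was 478 at an unadjusted p under 0.05 and 114 with at least a 1.5-fold difference. Array weights gave 1400 and 351, genes above the median of all probes 255 and 61, the fit without DMSO 1 and TCDD 2 1190 and 364, and leaving out 1 array 289 to 1280 and 64 to 361 (1280 and 361 without DMSO 1, 289 and 64 without DMSO 2, 195 of the second kind without TCDD 2 and 179 without DMSO 3). Of the 62 genes, 1 had an unadjusted p under 0.05 with array weights (cep290), and 0 to 3 did with 1 array left out. The count higher in TCDD, 43, was 12 with array weights, 13 without DMSO 1 and TCDD 2, and 5 (without DMSO 1) to 53 with 1 array left out. The median difference of the 62 genes ranged over -0.20 to 0.20 in the same fits, below 0 without DMSO 1 alone of the 10. Of the 37 named genes 20 changed sign without DMSO 1 and 22 in some alternative.

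With array weights, and without DMSO 1 and TCDD 2, the sign turned for ift46 (-0.074 and -0.11), ift81 (-0.20 and -0.25), IFT43 (-0.072 and -0.063), ift140 (-0.16 and -0.17), bbs7 (-0.059 and -0.054), bbs4 (-0.14 and -0.12), bbs2 (-0.15 and -0.15), mks1 (-0.021 and -0.021), cetn4 (-0.30 and -0.35), cep112 (-0.060 and -0.083), cep164 (-0.26 and -0.17), CEP350 (-0.056 and -0.078), ift57 (-0.11 and -0.18), traf3ip1 (-0.16 and -0.16), ift88 (-0.16 and -0.18) and ttc8 (-0.056 and -0.085). bbs2 was -0.016 after quantile normalization and cetn3 0.010 after median centring. With 1 array left out, ift46 ranged over -0.18 to 0.56, ift81 -0.33 to 0.47, IFT43 -0.13 to 0.25, ift140 -0.26 to 0.24, bbs7 -0.21 to 0.46, bbs4 -0.16 to 0.33, bbs2 -0.21 to 0.085, mks1 -0.15 to 0.54, tctn2 -0.012 to 0.42, cetn4 -0.37 to 0.58, cetn3 -0.14 to 0.080, cep112 -0.14 to 0.33, cep164 -0.17 to 0.30, CEP350 -0.058 to 0.097, ift57 -0.35 to 0.43, traf3ip1 -0.20 to 0.33, ift88 -0.29 to 0.32, bbs1 -0.31 to 0.043, TULP3 -0.035 to 0.30, ttc8 -0.13 to 0.28, kifap3b -0.014 to 0.63 and dync2li1 -0.032 to 0.84. The cause of these changes was not tested. The fit with the replicate block gave 0 genes at the adjusted threshold and 398 at an unadjusted p under 0.05, with 0 of the 62. Deviations of same-numbered arrays from their group means correlated by -0.58 to 0.29. Arrays with different numbers were not compared in this way, so it does not decide whether the numbers pair the samples.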
